A study of Saccharomyces cerevisiae W303 with 16 samples.

Results

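The comparison was made between 2 RNA-seq libraries of *sup45-ts* cells and 2 of *SUP45* cells of *Saccharomyces cerevisiae*, all kept at 25°C, 4 out of 16 libraries in the series (8 of them RNA-seq). They were chosen by their labels alone, as RNA-seq of both strains at the permissive temperature of the mutant. The *sup45-ts* cells carry the *sup45-2* allele of the gene for eRF1, and the *SUP45* cells carry the wild-type gene. Both strains are MATa haploids of the W303 background with mutant alleles of *ADE2*, *CAN1*, *HIS3*, *LEU2*, *TRP1* and *URA3*, and the mutant was made from the wild type by gene replacement, so each genotype is 1 strain. Cultures grew in YPD at 25°C, were moved to fresh YPD and received a mock shift with medium of the same temperature for 30 min. Total RNA was depleted of rRNA before a stranded library was made. The labels number the replicates without saying what separated them, so a p-value here measures the spread between libraries. In the main fits that spread came from all 8 RNA-seq libraries. These include libraries of both strains that were shifted to 37°C for 30 min.

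eRF1 is the release factor that recognises stop codons on the ribosome and frees the finished protein. It works with the GTPase eRF3, the product of *SUP35*. When it fails, ribosomes can read through the stop codon, and mRNAs with premature stop codons can escape nonsense-mediated decay (NMD), the pathway that destroys them. Unspliced transcripts that reach the cytoplasm usually hold a stop codon within the intron and are typical NMD substrates in yeast. At a permissive temperature the comparison asks how large any difference between the strains is before eRF1 is inactivated, and which groups of transcripts differ.

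The 4 libraries held between 113645576 and 151806553 expected counts, which are RSEM's estimates of the fragments of each transcript. Levels are given as CPM, the counts of a transcript scaled to a common library size, after TMM scaling, which corrects for composition. The strain difference is a log2 fold change of *sup45-ts* over *SUP45* from edgeR's quasi-likelihood test, fitted on all 8 RNA-seq libraries, and a transcript is called at a Benjamini-Hochberg adjusted p of 0.05 or less. Of 6952 transcripts in the files, 6767 were tested. Replicates correlated at 0.998 in *sup45-ts* and 0.997 in *SUP45* cells (Pearson's r of log2(FPKM + 1) across transcripts, which are not independent replicates). The MATa genes *STE2*, *MFA1* and *MFA2*, from a list of 13, were present in both strains. From a list of 4 alpha genes, the alpha-factor genes *MF(ALPHA)1* and *MF(ALPHA)2* and the receptor gene *STE3* stayed under 1 CPM in all 4 libraries. No level is given here for the remaining alpha gene.

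*SUP45* mRNA itself showed no difference beyond the spread between replicates. It stood at 676 and 700 CPM in *sup45-ts* cells, against 678 and 726 CPM in *SUP45* cells. The libraries of both strains interleaved, with a log2 fold change of -0.03 ± 0.07 (SE) and a 95% interval from -0.19 to 0.14 (edgeR adjusted p = 0.89). A level of mRNA does not tell a mutant allele from the wild type, so it does not check the label.

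The size of the differences was bounded by the 95% interval of each fold change, taken transcript by transcript. The interval lay within 1.5-fold in either direction for 5536 transcripts (81.8% of those tested) and within 2-fold for 6187 (91.4%). Among the 5902 transcripts with a mean of at least 1 CPM at 25°C, 92.4% lay within 1.5-fold and 98.6% within 2-fold, and the median half-width of the interval was 0.18 on the log2 scale. The bound was loosest at low levels. Of transcripts up to 10.9 CPM, 40.5% were bounded within 1.5-fold, against 96.8% of those from 42.7 to 111 CPM. The central 90% of the fold changes ran from -0.32 to 0.30, and the median was 0.00. For comparison, the median absolute difference was 0.09 between the strains, 0.07 between the *sup45-ts* replicates and 0.11 between the *SUP45* replicates (log2, transcripts of at least 1 CPM). The strain value compares means of 2 libraries and the replicate values compare single libraries, so they are not on the same footing.

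**Figure D1:**
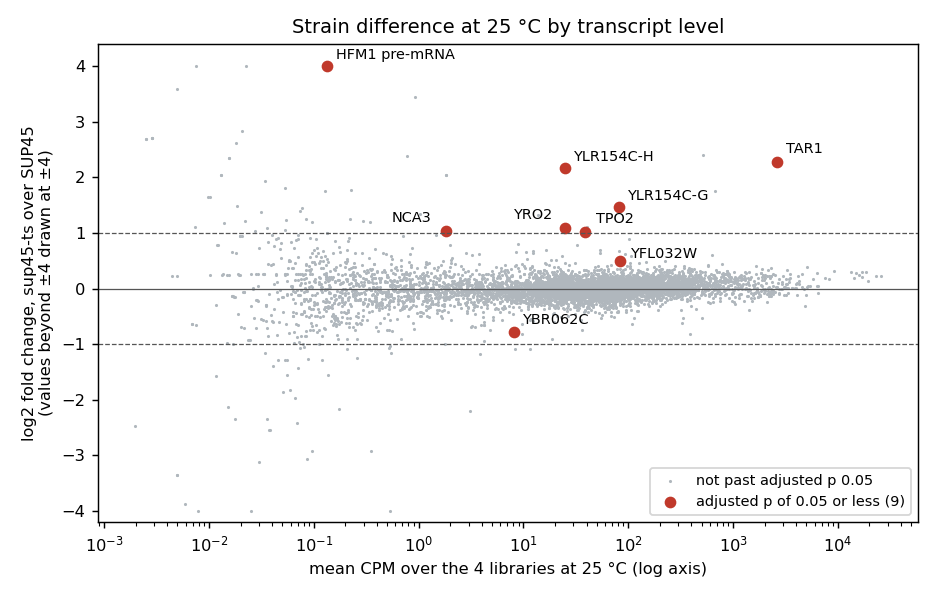
Each point is a transcript, placed by its mean CPM over the 4 libraries at 25°C (log axis) and its log2 fold change, with dashed lines at 2-fold. From 1 CPM upwards all but 19 transcripts stay within 2-fold, and the 9 called transcripts are drawn in red.

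At 25°C, 9 transcripts were called, which is 0.133% of those tested, with 8 (0.118%) higher and 1 (0.0148%) lower in *sup45-ts*. At an unadjusted p of 0.05 or less, 466 (6.89%) were higher and 411 (6.07%) lower. The number of calls rested on single libraries and on the fit. Without *SUP45* replicate 1 it was 150, without *SUP45* replicate 2 it was 8, without *sup45-ts* replicate 1 it was 5 and without *sup45-ts* replicate 2 it was 1. It was 120 with DESeq2 and 0 when the spread was taken from the 4 libraries at 25°C alone, where 732 had an unadjusted p of 0.05 or less in edgeR. The intervals of 27 transcripts lay wholly beyond 1.5-fold, 16 on the higher and 11 on the lower side.

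Of the called transcripts, 3 lie in the rDNA repeats of chromosome XII. *TAR1* (YLR154W-C, XII 454696 to 455070, R64), which encodes a mitochondrial protein from the strand opposite the 25S rRNA gene *RDN25-1*, had 4269 and 4494 CPM in *sup45-ts* cells, against 629 and 1176 CPM in *SUP45* cells. Both mutant libraries were far above both wild-type libraries, with a log2 fold change of 2.28 ± 0.32 (SE; edgeR adjusted p = 0.040). YLR154C-H (XII 468827 to 468958), opposite the 5S gene *RDN5-2*, had 36.0 and 44.8 CPM in *sup45-ts*, against 7.16 and 10.9 CPM in *SUP45* (log2 fold change 2.17 ± 0.25, adjusted p = 0.027). YLR154C-G (XII 462522 to 462671), within *RDN25-2* and on its strand, had 99.2 and 142 CPM in *sup45-ts*, against 44.1 and 43.0 CPM in *SUP45* (log2 fold change 1.47 ± 0.16, adjusted p = 0.027).

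Transcripts overlapping an rRNA gene took 0.343% and 0.375% of all expected counts in the *sup45-ts* libraries, against 0.0568% and 0.105% in the *SUP45* libraries. Of 6 such transcripts tested, 5 had both mutant libraries above both wild-type libraries. The exception was YLR157C-C, with 2.53 and 0.0499 CPM in *sup45-ts* against 0 and 0.519 CPM in *SUP45*. Frames that share the systematic name of *TAR1* up to its last letter and have no coordinates in the RefSeq table, YLR154W-A, YLR154W-B and YLR154W-F, had log2 fold changes of 2.25, 2.25 and 2.41, with adjusted p-values of 0.057, 0.053 and 0.082. YLR162W (XII 489573 to 489929), at the edge of the array, had 958 and 1121 CPM in *sup45-ts* against 253 and 364 CPM in *SUP45* (log2 fold change 1.75 ± 0.33, adjusted p = 0.12). YLR156C-A and YLR159C-A had identical values in every library, at a log2 fold change of 2.05 (adjusted p = 0.23), so reads of near-identical copies may have been shared between them. These frames make up 9 of the 10 transcripts with the largest differences on the higher side, by the rule for named transcripts. No source used here says whether the counting took account of the strand, so reads of these frames and of rRNA that survived depletion cannot be told apart. Without the transcripts that overlap an rRNA gene, 6 transcripts were called.

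The genes *YRO2*, *TPO2* and *NCA3* and the frame YFL032W were also called higher. *YRO2*, which encodes a plasma membrane protein of the weak acid and stress response, had 38.5 and 29.2 CPM in *sup45-ts*, against 17.7 and 14.0 CPM in *SUP45*, a log2 fold change of 1.09 ± 0.14 (adjusted p = 0.027). *TPO2*, a polyamine exporter gene controlled like *YRO2* by the transcription factor Haa1, had 55.2 and 49.2 CPM in *sup45-ts*, against 29.9 and 21.4 CPM in *SUP45* (log2 fold change 1.02 ± 0.14, adjusted p = 0.040). *NCA3*, a gene of the SUN family that acts in mitochondrial biogenesis, was rare, at 2.30 and 2.62 CPM in *sup45-ts* against 1.28 and 1.12 CPM in *SUP45* (log2 fold change 1.03 ± 0.13, adjusted p = 0.027). YFL032W, a dubious frame that lies next to *HAC1* by its systematic name, differed least among the called, with 92.4 and 102 CPM in *sup45-ts* against 67.4 and 70.7 CPM in *SUP45* (log2 fold change 0.49 ± 0.06, adjusted p = 0.027). For all of these, both mutant libraries were above both wild-type libraries. *TPO3*, the closest relative of *TPO2* and looked at after these values were seen, was not called, at a log2 fold change of 0.20 ± 0.10 (adjusted p = 0.43).

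The other called transcripts come from genes with an intron. The unspliced form of *HFM1*, a meiotic DNA helicase gene, had 24.9 expected counts in each *sup45-ts* library and 0 in each *SUP45* library, which is at least 20.0-fold higher when the *SUP45* group is set at a floor of 3 counts (adjusted p = 0.027). Its level was very low, at 0.28 and 0.25 CPM in *sup45-ts*. The log2 ratio of unspliced to spliced FPKM, with a pseudocount of 0.1 FPKM, differed by 0.82 ± 0.18 and was not called (limma adjusted p = 0.16). That pseudocount exceeds the unspliced level, 0.06 and 0.05 FPKM in *sup45-ts*. With a pseudocount of 0.01 the ratio was called, at 2.89 (limma adjusted p = 0.0050). It was also called with CPM of the expected counts, at 1.82 (limma adjusted p = 0.042). The spliced *HFM1* transcript had 28.8 and 30.4 CPM in *sup45-ts*, against 30.7 and 32.7 CPM in *SUP45*, and was not called (log2 fold change -0.10, adjusted p = 0.60). The spliced transcript of YBR062C, whose protein resembles RING finger proteins, was the only one called lower, with 5.87 and 6.13 CPM in *sup45-ts* against 9.50 and 11.0 CPM in *SUP45* (log2 fold change -0.77 ± 0.10, adjusted p = 0.027). Its unspliced form pointed the other way, with 11.9 and 11.4 CPM in *sup45-ts* against 9.31 and 8.17 CPM in *SUP45* (log2 fold change 0.41 ± 0.09, adjusted p = 0.21). The unspliced form made up 64.0% and 62.0% of the gene's FPKM in *sup45-ts*, against 46.4% and 39.5% in *SUP45*, and for the gene as a whole, both forms summed, the log2 fold change was -0.12 (adjusted p = 0.47). RSEM divides reads from shared exons between the 2 forms, so the values of a pair are not independent.

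**Figure D2:**
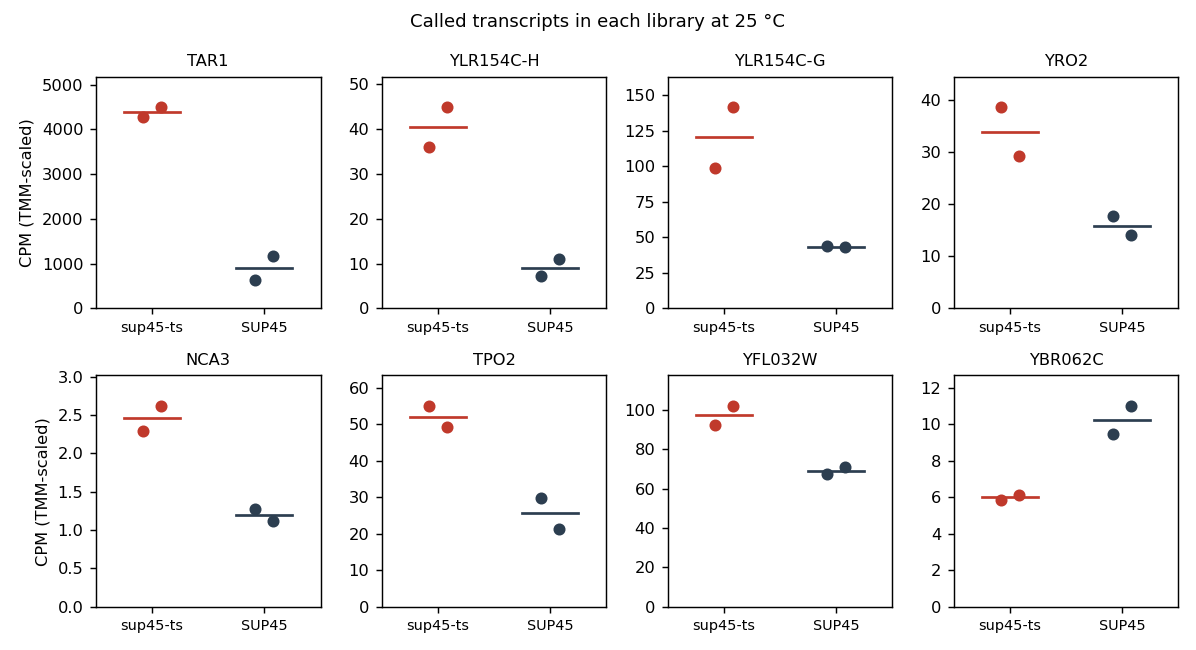
CPM of 8 of the 9 called transcripts in each library at 25°C, with *sup45-ts* at the left and *SUP45* at the right of each panel, the line at the mean and every axis starting at 0; *HFM1* pre-mRNA, at 0 in both *SUP45* libraries, is left out. In every panel the 2 strains are separate, with YBR062C alone lower in *sup45-ts*.

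At 37°C, 78.9% of all transcripts were called in either direction, with 2674 higher and 2664 lower of 6767. Of the 9, 6 were called there, which is a share below that background. All 6 had the same direction as at 25°C, and for direction the background is the share called on 1 side. The difference between the 2 temperatures was called for 6 of the 9 as well, against 70.1% of all transcripts. *TPO2* had a log2 fold change of 2.54 at 37°C against 1.02 at 25°C, while *YRO2*, *NCA3* and YFL032W were not called at 37°C, at 0.24, -0.08 and -0.03. The 37°C comparison shares no library with that at 25°C.

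Genes for termination and recycling had members on either side of 0. A member is described here as separate when both *sup45-ts* libraries lay above, or both below, the 2 *SUP45* libraries. Over all transcripts, 23.7% were separate on the higher side and 21.2% on the lower side, and the counts below are read against these shares. None of the 19 in the list was called, 8 were separate on the higher side and 5 on the lower, 18 had an interval within 1.5-fold, and the median log2 fold change was 0.02 (-0.04 without *SUP45* replicate 1). *SUP35*, the gene of eRF3, had 790 and 822 CPM in *sup45-ts* against 679 and 628 CPM in *SUP45*, with both mutant libraries higher (log2 fold change 0.30 ± 0.08, unadjusted p = 0.0054, adjusted p = 0.24, and 0.018 with DESeq2). DESeq2 called 120 of 6885 transcripts, and *SUP35* passed the threshold under none of the other settings tried. *HBS1*, whose product rescues stalled ribosomes together with Dom34, had 131 and 133 CPM in *sup45-ts* against 117 and 114 CPM in *SUP45* (log2 fold change 0.19, adjusted p = 0.31). *DOM34* stood at -0.03, and the recycling ATPase gene *RLI1* at 0.14 (adjusted p = 0.88 and 0.42). On the lower side, *GFD1*, a partner of the mRNA export factor Dbp5, had 38.97 and 43.3 CPM in *sup45-ts* against 53.1 and 56.8 CPM in *SUP45* (log2 fold change -0.42 ± 0.08, adjusted p = 0.12). *MTQ2*, which encodes the methyltransferase of eRF1, had 25.9 and 28.4 CPM in *sup45-ts* against 30.9 and 33.8 CPM in *SUP45* (log2 fold change -0.25, adjusted p = 0.25), and its partner gene *TRM112* stood at 0.02 (adjusted p = 0.95).

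The NMD pathway and its known substrates gave no call either, where 0.133% of all transcripts tested were called. Of 15 genes for NMD and decapping factors, 6 were separate on the higher side and 4 on the lower, and all had an interval within 1.5-fold, as did 92.4% of transcripts of at least 1 CPM. *NAM7*, *NMD2* and *UPF3*, the 3 core factors, stood at 0.12, 0.08 and -0.13 (adjusted p = 0.45, 0.66 and 0.47). All 10 substrates in the list also had intervals within 1.5-fold, 1 was separate on the higher side and 2 on the lower, and their median was -0.03 (0.03 without *SUP45* replicate 2). *FZF1*, *CPA1* and *CTF13* had the smallest p-values of them, at 0.17, -0.10 and -0.10 (adjusted p = 0.37, 0.52 and 0.56). YOR302W, the upstream reading frame in the leader of *CPA1* and named after its value was seen, had 9.37 and 9.23 CPM in *sup45-ts*, against 14.6 and 12.7 CPM in *SUP45* (log2 fold change -0.56 ± 0.10, adjusted p = 0.12). Of the 6 marker genes mutated in both strains, *LEU2* differed most, with 163 and 131 CPM in *sup45-ts* against 105 and 107 CPM in *SUP45* (log2 fold change 0.47 ± 0.10, adjusted p = 0.14, and 0.0030 with DESeq2). *LEU2* too passed the threshold under none of the other settings tried. *HIS3*, *TRP1* and *URA3* stood at 0.11, 0.10 and -0.03 (adjusted p = 0.79, 0.72 and 0.85). *ADE2* and *CAN1* were separate on the lower side, at -0.22 ± 0.08 and -0.12 ± 0.06 (adjusted p = 0.33 and 0.41).

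Below the threshold for single genes, some functional groups lay mostly on 1 side. The counts of separate members are read against the shares over all transcripts given above. The members of a list are not replicates of each other, and no test was made of these lists. The lists and their members were chosen with earlier results of these data known. The counts describe these lists and are no independent evidence of a shift. Some lists changed side at 37°C, where the median log2 fold change was -0.49 for aminoacyl-tRNA synthetases, -0.77 for glycolysis and 1.10 for iron genes. Phosphate and general stress genes kept their side there, at -0.56 and 0.53.

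**Figure D3:**
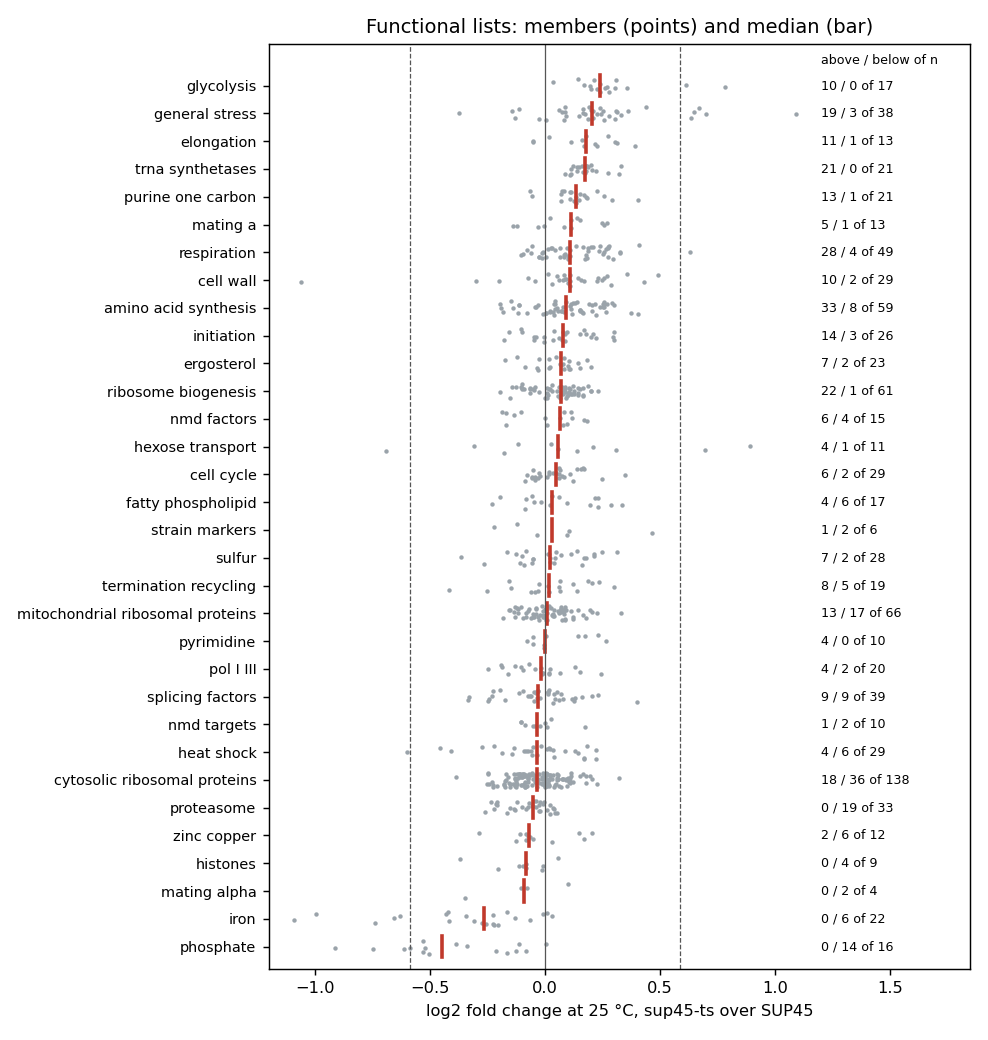
Log2 fold change at 25°C of each member (points) of 32 functional lists with the median (bar), and at the right the number of members with both *sup45-ts* libraries above, and below, both *SUP45* libraries; dashed lines mark 1.5-fold. Nearly all members lie within 1.5-fold, with phosphate and iron genes at the low end and glycolysis at the high end.

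The phosphate genes, targets of the transcription factor Pho4 that take up and store phosphate, stood lowest. Of 16, 14 were separate on the lower side and 0 on the higher side, the median log2 fold change was -0.45, and 12 had an unadjusted p of 0.05 or less, though none was called. *PHO12*, a secreted acid phosphatase gene, had 278 and 238 CPM in *sup45-ts*, against 366 and 426 CPM in *SUP45* (log2 fold change -0.62 ± 0.10, adjusted p = 0.066). Its near-identical copy *PHO11* can share reads with it and stood at -0.51 (adjusted p = 0.17). *SPL2*, a regulator of low-affinity phosphate transport, had 15.03 and 11.1 CPM in *sup45-ts*, against 21.3 and 27.9 CPM in *SUP45* (log2 fold change -0.91 ± 0.19, adjusted p = 0.16, and 0.00037 with DESeq2). The mutant libraries were below the wild-type ones in both cases, and the same held for the high-affinity transporter gene *PHO84*, with 479 and 343 CPM in *sup45-ts* against 582 and 607 CPM in *SUP45* (log2 fold change -0.53 ± 0.14, adjusted p = 0.24). *PHO5*, the main acid phosphatase gene, and *VTC3*, for a subunit of the polyphosphate polymerase, stood at -0.52 and -0.53 (adjusted p = 0.16 for both). *PHO8* and *GIT1* were the exceptions, with libraries that interleaved and log2 fold changes of 0.00 and -0.11. The list's median ranged from -0.56 to -0.27 over the alternatives, and it was -0.27 without *SUP45* replicate 2.

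**Figure D4:**
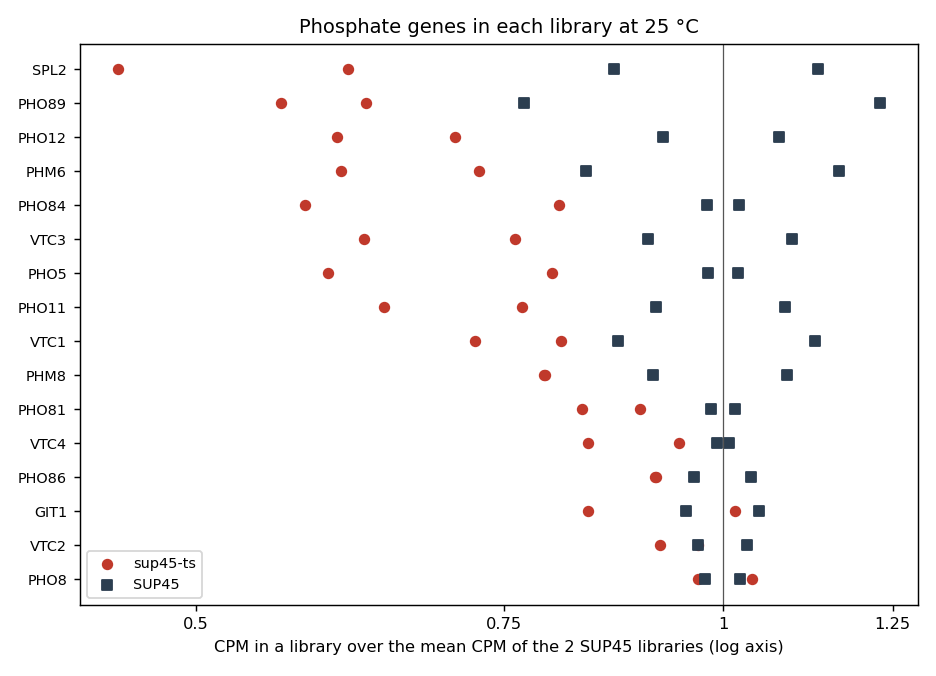
CPM of each phosphate gene in each library at 25°C over the mean of the 2 *SUP45* libraries (log axis), with *sup45-ts* as circles and *SUP45* as squares. The circles lie left of the squares for 14 of the 16 genes, by the smallest margin for *VTC2*, where a square covers 1 circle.

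Iron uptake genes, targets of Aft1, had a median of -0.26, but 6 of 22 were separate on the lower side and 0 on the higher side, and the value depended on 1 library. Both genes given here were chosen after their values were seen. *SIT1*, a siderophore transporter gene, had 43.4 CPM in *sup45-ts* replicate 1 and 127 CPM in *sup45-ts* replicate 2, against 159 and 106 CPM in *SUP45*. *FET3*, the iron oxidase gene, likewise had 695 and 1186 CPM in *sup45-ts*, against 1392 and 882 CPM in *SUP45*, and its log2 fold change of -0.27 was smaller in size than its SE of 0.42 (adjusted p = 0.81). Without *sup45-ts* replicate 1 the median of the list was -0.08, and without *sup45-ts* replicate 2 it was -0.51.

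Aminoacyl-tRNA synthetases and elongation factors lay on the higher side. For the cytosolic aminoacyl-tRNA synthetases, which charge tRNAs, all 21 were separate on the higher side, and every interval lay within 1.5-fold. Their log2 fold changes ran from 0.09 to 0.33, with a median of 0.17. *FRS2*, for a subunit of the phenylalanine enzyme, had 434 and 397 CPM in *sup45-ts*, against 360 and 300 CPM in *SUP45* (log2 fold change 0.33 ± 0.10, adjusted p = 0.26). *CDC60*, the leucine enzyme gene, had 2010 and 2034 CPM in *sup45-ts*, against 1767 and 1578 CPM in *SUP45* (log2 fold change 0.27 ± 0.10, adjusted p = 0.33). Elongation factors had a similar median of 0.18, with 11 of 13 separate on the higher side and 1 on the lower. *CAM1*, for a subunit of the exchange factor eEF1B, had 506 and 476 CPM in *sup45-ts*, against 422 and 373 CPM in *SUP45* (log2 fold change 0.31 ± 0.09, adjusted p = 0.27). *EFT1* and *EFT2*, which encode the same eEF2 protein and can share reads, stood at 0.39 and 0.31 (adjusted p = 0.33 and 0.38). Of the initiation factors, 14 of 26 were separate on the higher side and 3 on the lower, and the eIF4G genes *TIF4631* and *TIF4632* led them at 0.30 each (adjusted p = 0.24 and 0.25).

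With total library size in place of TMM, all fold changes moved down, and the median of all transcripts became -0.09. Under that scaling the medians were 0.08 for synthetases and 0.08 for elongation factors, 16 of 21 synthetases were separate on the higher side and 0 on the lower, and 628 of all 6767 transcripts were separate on the higher side against 2921 on the lower. The median of the initiation factors turned to -0.02 there.

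The ribosomal proteins themselves lay near 0. Of 138 cytosolic ribosomal protein (RP) mRNAs, counting spliced forms, 18 were separate on the higher side and 36 on the lower, the median was -0.04 (0.04 without *SUP45* replicate 2), and 136 were bounded within 1.5-fold. *RPS14B* had the largest difference on the higher side, at 457 and 385 CPM in *sup45-ts* against 339 and 335 CPM in *SUP45* (log2 fold change 0.32, adjusted p = 0.29). *RPL41A* had the largest on the lower side, at 1288 and 1161 CPM in *sup45-ts* against 1374 and 1830 CPM in *SUP45* (log2 fold change -0.39, adjusted p = 0.33). The mitochondrial ribosomal proteins had a median of 0.01, and all 66 were bounded within 1.5-fold. Ribosome biogenesis genes had 22 of 61 separate on the higher side and 1 on the lower, at a median of 0.07 that turned to -0.03 with total library size and was 0.01 without *sup45-ts* replicate 2, and the processome gene *UTP15* stood at 0.20 (adjusted p = 0.24).

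Glycolytic and general stress genes lay on the higher side as well. All 17 genes of glycolysis and fermentation had a fold change above 0, 10 were separate on the higher side and 0 on the lower, and the median was 0.24. *TDH1*, the minor glyceraldehyde-3-phosphate dehydrogenase gene, had 39.2 and 42.2 CPM in *sup45-ts*, against 27.7 and 19.5 CPM in *SUP45* (log2 fold change 0.78 ± 0.13, adjusted p = 0.098). *ENO1*, an enolase gene, had 877 and 641 CPM in *sup45-ts*, against 595 and 398 CPM in *SUP45* (log2 fold change 0.61 ± 0.20, adjusted p = 0.29). General stress genes, targets of Msn2 and Msn4, had 19 of 38 separate on the higher side and 3 on the lower, with a median of 0.20, and *YRO2* was the called member. *YGP1*, a secreted stress glycoprotein gene, had 109 and 91.0 CPM in *sup45-ts*, against 79.6 and 45.7 CPM in *SUP45*, and so a wide gap between the *SUP45* replicates (log2 fold change 0.67 ± 0.21, adjusted p = 0.27). The medians of these 2 lists depended on the library left out. Without *SUP45* replicate 1 they were 0.38 for glycolysis and 0.30 for stress genes, without *SUP45* replicate 2 the stress genes were at 0.11, and without *sup45-ts* replicate 1 glycolysis was at 0.13.

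Respiration genes had 28 of 49 separate on the higher side and 4 on the lower (median 0.11, 0.19 without *SUP45* replicate 1 and 0.01 with total library size), with *QCR2*, a subunit gene of the cytochrome bc1 complex, at 0.33 ± 0.08 (adjusted p = 0.21). Amino acid synthesis had 33 of 59 on the higher side and 8 on the lower (median 0.09, 0.15 without *SUP45* replicate 1 and -0.0022 with total library size), with *ILV3* of branched-chain synthesis at 0.41 ± 0.11 and *SER3* of serine synthesis at 0.27 ± 0.06 (adjusted p = 0.24 and 0.21). Adenine and one-carbon genes had 13 of 21 on the higher side and 1 on the lower (median 0.14), with *ADE3* at 0.40 ± 0.11 (adjusted p = 0.24). Hexose transporters had no common direction, although *HXT4* had 162 and 104 CPM in *sup45-ts* against 87.6 and 55.4 CPM in *SUP45* (log2 fold change 0.89 ± 0.22, adjusted p = 0.23). MATa genes had 5 of 13 on the higher side and 1 on the lower, and the 4 alpha genes 0 and 2.

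Proteasome genes lay slightly on the lower side. Of 33 proteasome genes, 19 were separate on the lower side and 0 on the higher, yet the median was -0.05 and every interval lay within 1.5-fold. *PRE3*, a catalytic subunit gene, had 122 and 120 CPM in *sup45-ts*, against 144 and 140 CPM in *SUP45* (log2 fold change -0.23 ± 0.05, adjusted p = 0.21). *RPN4*, the activator of proteasome genes, stood at -0.21 ± 0.06 (adjusted p = 0.25). Chaperone genes, targets of the heat shock factor, had 6 of 29 on the lower side and 4 on the higher, near the background, with the sequestrase gene *BTN2* and its paralogue *CUR1* lowest in p, at -0.41 and -0.45 (adjusted p = 0.24 and 0.14). Core histone genes had 4 of 9 on the lower side and 0 on the higher (median -0.08, and -0.0069 without *SUP45* replicate 2), and splicing factors had 9 of 39 on either side (median -0.03).

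Ribosome footprints of the same strains and conditions gave a second view, as 1 value per strain because the authors combined the replicates. The median log2 ratio of CDS footprint RPKM was -0.01 over 5233 genes with at least 10 footprints in each strain. All 21 synthetases lay above that median, with a median of 0.12, while 2 of 16 phosphate genes and 0 of 20 iron genes lay above it, with medians of -0.36 and -0.65. Cytosolic RP genes had 10 of 138 above it, at a median of -0.20. Elongation factors had 7 of 13 above it and initiation factors 15 of 26, at medians of 0.02 and 0.03. Of the called transcripts, *TAR1*, YLR154C-G, YLR154C-H and YFL032W had 0 CDS footprints in both strains. The authors had removed footprint reads that aligned to rRNA. *YRO2*, *NCA3* and *TPO2* had footprint ratios of 0.94, 0.77 and 0.37, and YBR062C -0.19. These ratios have no replicate check.

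Unspliced transcripts lay on the lower side. Of 290 unspliced transcripts tested, 127 (43.8%) were separate on the lower side and 26 (8.97%) on the higher side, and 69 were lower and 7 higher at an unadjusted p of 0.05 or less. The median log2 fold change was -0.17, against -0.01 for the 276 spliced transcripts of intron genes and 0.01 for the 6145 transcripts of genes without an intron. Only *HFM1* pre-mRNA was called.

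RP genes, which supply most of the intron-containing mRNA of yeast, held many of them. Of 101 unspliced RP transcripts, 72 were separate on the lower side and 0 on the higher side, with a median of -0.21, and 43 were lower at an unadjusted p of 0.05 or less. The spliced transcripts of the same 101 genes had 28 on the lower and 9 on the higher side, with a median of -0.05, and the 37 RP genes without an intron had 8 and 9, with a median of 0.01. Unspliced transcripts of the other 189 genes had 55 on the lower and 26 on the higher side (median -0.07). At 37°C, in other libraries, the median of the unspliced RP transcripts was -1.08, with 90 of 101 called lower. There, 2664 of all 6767 transcripts were called lower. Of the spliced transcripts of the same genes, 50 of 101 were called lower, with a median of -0.25.

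**Figure D5:**
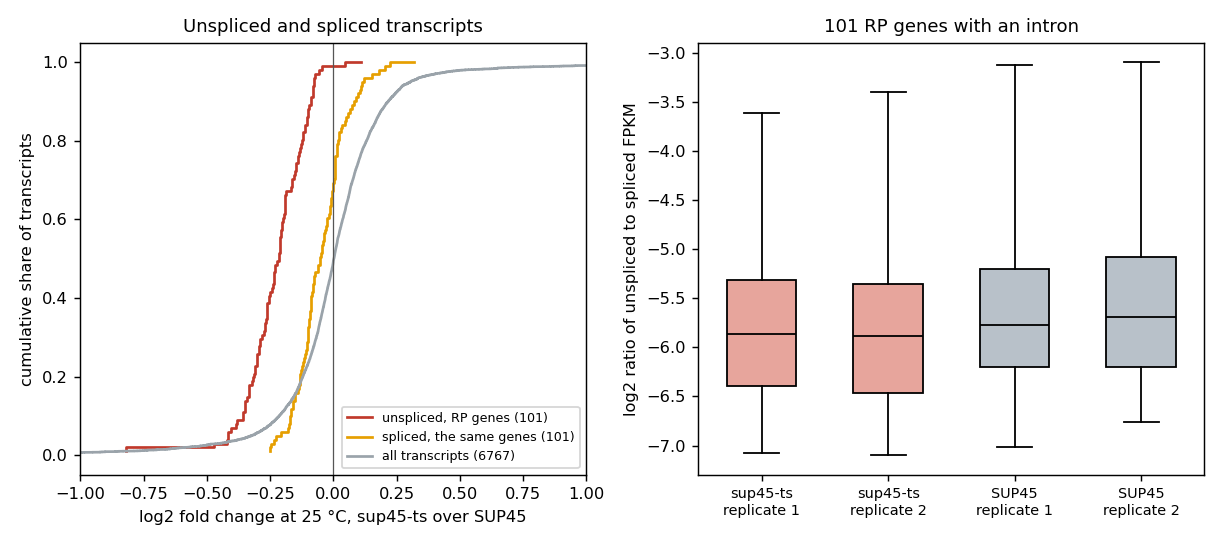
Left, cumulative share of transcripts by log2 fold change at 25°C for unspliced RP transcripts, spliced transcripts of the same genes and all transcripts; right, log2 ratio of unspliced to spliced FPKM of the 101 RP genes in each library (box, quartiles and median; whiskers, 5% to 95%). The unspliced curve lies left of the other curves over most of its range, and the median ratios of both *sup45-ts* libraries lie below those of both *SUP45* libraries.

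*RPL6B* pre-mRNA is an example, at 50.4 and 52.0 CPM in *sup45-ts* against 64.8 and 65.6 CPM in *SUP45* (log2 fold change -0.35 ± 0.07, adjusted p = 0.16), while its spliced mRNA stood at -0.03 (adjusted p = 0.91). *RPL19B* pre-mRNA stood at -0.32 ± 0.06, with the spliced mRNA at 0.01 (adjusted p = 0.14 and 0.99). Both examples were chosen after their values were seen. *RPS17A* pre-mRNA had the largest difference on the lower side among RP genes, with 236 and 320 CPM in *sup45-ts* against 533 and 450 CPM in *SUP45* (log2 fold change -0.82 ± 0.24, adjusted p = 0.25).

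*RPL28* pre-mRNA, a classic NMD substrate, had 275 and 262 CPM in *sup45-ts*, against 272 and 329 CPM in *SUP45*, and *RPS0A* pre-mRNA, followed beside it, had 22.1 and 19.8 CPM in *sup45-ts*, against 22.3 and 25.6 CPM in *SUP45*. The libraries overlapped for the first of these and were separate for the second, with log2 fold changes of -0.16 ± 0.10 and -0.20 ± 0.13 (adjusted p = 0.51 and 0.54). *HAC1* mRNA, which is spliced only in the unfolded protein response, was almost wholly unspliced in both strains, at 99.1% and 99.7% of its FPKM in *sup45-ts* and 99.5% and 99.7% in *SUP45*, and its unspliced form stood at 0.05 (adjusted p = 0.89).

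Outside the RP genes, *VPS29* pre-mRNA, from a retromer subunit gene, had 2.56 and 2.15 CPM in *sup45-ts*, against 4.74 and 5.87 CPM in *SUP45* (log2 fold change -1.17 ± 0.22, adjusted p = 0.12), and *SPT14* pre-mRNA, from a gene of GPI anchor synthesis, had 6.69 and 7.25 CPM in *sup45-ts* against 11.5 and 13.1 CPM in *SUP45* (log2 fold change -0.82 ± 0.17, adjusted p = 0.14). Their spliced transcripts stood at -0.02 and 0.16. On the higher side, *PBA1* pre-mRNA, from a proteasome assembly gene, had 1.78 and 2.04 CPM in *sup45-ts*, against 0.688 and 1.297 CPM in *SUP45* (log2 fold change 0.96 ± 0.29, adjusted p = 0.27). *TUB1* and *SEC14* pre-mRNA, from the alpha-tubulin and phosphatidylinositol transfer protein genes, stood at 0.42 ± 0.10 and 0.35 ± 0.09 (adjusted p = 0.21 and 0.24). With DESeq2, which called 120 of 6885 transcripts, *VPS29*, *SPT14*, *TUB1* and *SEC14* pre-mRNA passed the threshold (adjusted p = 0.0002, 0.00046, 0.018 and 0.041). *TUB1* and *SEC14* pre-mRNA passed it in no other alternative.

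The ratio of unspliced to spliced FPKM within a gene was tested with limma on 291 genes, with a pseudocount of 0.1 FPKM. None was called, and 22 were lower and 4 higher at an unadjusted p of 0.05 or less. The ratio was lower in *sup45-ts* for 216 of the 291 genes, with a median log2 difference of -0.16, and 124 genes (42.6%) were separate on the lower side against 29 (9.97%) on the higher. For the 101 RP genes, 70 were separate on the lower side and 4 on the higher, and the median log2 ratio of a library was -5.87 and -5.89 in *sup45-ts*, against -5.78 and -5.69 in *SUP45*. An exact two-sided permutation test of these 4 library medians gave p = 0.333, the smallest that 2 against 2 libraries allow. It could therefore not tell the strains apart. For the other 190 genes, 54 were separate on the lower side and 25 on the higher, with a median log2 difference of -0.13. Their library medians interleaved, at -2.336 and -2.655 in *sup45-ts* against -2.418 and -2.424 in *SUP45*. Summed over the RP genes, unspliced FPKM came to 2.10% and 2.15% of spliced FPKM in *sup45-ts*, against 2.43% and 2.42% in *SUP45*. YBR090C had the smallest p-value (adjusted p = 0.078), with its unspliced form listed at 0 CPM in both *sup45-ts* libraries and at 1.62 and 0.509 CPM in *SUP45*. YBR062C, with a difference of 1.17 ± 0.22, and *VPS29*, with -1.11 ± 0.21, followed (adjusted p = 0.11 for both).

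The remaining largest differences on the lower side by the fold change were not called and varied between libraries. YLR035C-A (XII 215440 to 218907) had 1.95 and 0.319 CPM in *sup45-ts*, against 6.29 and 3.82 CPM in *SUP45* (log2 fold change -2.20 ± 0.53, adjusted p = 0.21). *TMA23*, a ribosome biogenesis gene, had 2.23 and 3.56 CPM in *sup45-ts*, against 4.41 and 6.70 CPM in *SUP45* (log2 fold change -0.93 ± 0.27, adjusted p = 0.25). YOR309C, without coordinates in RefSeq, had a log2 fold change of -1.09 ± 0.41 (adjusted p = 0.33) that was -0.11 without *SUP45* replicate 2. *PHO89*, the sodium phosphate symporter gene, and YGR035C stood at -0.75 ± 0.21 and -0.70 ± 0.16 (adjusted p = 0.24 and 0.21, and 0.038 and 0.035 with DESeq2). The only member of the 10 largest on the higher side outside the rDNA was YDR433W, with 22.5 and 17.0 CPM in *sup45-ts* against 5.56 and 10.3 CPM in *SUP45* (log2 fold change 1.32 ± 0.35, adjusted p = 0.24).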

How the data were processed

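RNA-Seq libraries were grouped by strain and temperature from the labels. The authors ran RSEM with bowtie on a transcriptome of R64-2-1 that holds spliced and unspliced forms, and deposited expected counts, which need not be whole, and FPKM for each transcript. The deposited TPM and the isoform percentages were not used. For footprints, the authors deposited whole counts per CDS and RPKM with replicates combined, and other footprint columns were not used here.

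Expected counts were tested with edgeR 4.0.16 (R 4.3.3): filterByExpr, TMM, 8 libraries, 1 mean per strain and temperature. Unadjusted 95% intervals came from the same fit. FPKM ratios were tested with limma 3.58.1 for genes with a mean of at least 10 unspliced counts. DESeq2 1.42.0, other scalings, filters, libraries left out, gene sums and a replicate block were alternatives. Steps were tested on simulated data. The 32 gene lists hold 903 entries, and the members and lists were chosen with earlier results of these data known. Named transcripts are those called, the 10 largest differences on each side (at least 1 CPM, unadjusted p of 0.05 or less, libraries separate), the 5 on each side among unspliced forms, the genes of termination and NMD, and up to 4 members of a list with the smallest p. Coordinates are RefSeq R64, for 6259 transcripts.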

Additional observations from a re-analysis of the deposited data

Results flagged for a closer look

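The strain difference at 37°C minus that at 25°C was tested in the same edgeR fit for 26 transcripts: those called at 25°C, the largest differences on each side and *SUP45*. It passed an adjusted p of 0.05 for 12 of them, against 70.1% of all transcripts tested. The change of the log2 fold change was -2.39 for YDR433W, -1.31 for *SPL2*, -1.11 for *NCA3*, -0.85 for *YRO2*, -0.66 for *SUP45* and -0.52 for YFL032W. For *HFM1* pre-mRNA it was -5.12, a fitted value that depends on the prior count because both *SUP45* libraries at 25°C were at 0. It was 1.13 for YLR154C-G, 1.14 for *PHO89*, 1.40 for *SPT14* pre-mRNA, 1.52 for *TPO2* and 2.25 for YGR035C. YGR035C and *SPT14* pre-mRNA changed sides, with log2 fold changes at 37°C of 1.56 and 0.58 against -0.70 and -0.82 at 25°C, and so did YDR433W, with -1.08 against 1.32. *SUP45* mRNA was lower in *sup45-ts* at 37°C, at -0.69.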

How the results depend on the processing

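With 2 libraries per strain, the count of calls was the least stable result. The 9 calls (8 higher, 1 lower) became 120 with DESeq2 (64 and 56), 33 with total library size (12 and 21), 18 with a replicate block on 8 libraries (12 and 6), 13 with sums per gene (10 and 3), 12 with RLE factors (10 and 2), 10 without a filter (9 and 1), 9 with a replicate block on the 4 libraries at 25°C, 5 with at least 1 CPM in each 25°C library (4 and 1), and 0 with the 4 libraries at 25°C only (0 and 0), where 732 had an unadjusted p of 0.05 or less. Leaving out 1 library gave 1 to 150 calls, 1 to 99 higher and 0 to 51 lower; the lone library is then assumed to vary like the other groups. All 9 calls were among those of DESeq2, of the block on 8 libraries and of the fit without *SUP45* replicate 1. Deviations of replicates with the same number correlated at r between -0.17 and 0.22 for the 6 pairs of groups, and at 0.02 between the strains at 25°C. These values cannot settle whether such replicates were paired, and the labels do not say, so the block is an alternative only. Without transcripts that overlap rRNA genes, chosen after seeing the data, 5 were called higher, and 3 of those called at 25°C were called at 37°C. The bounds moved little, from 5052 to 5580 transcripts within 1.5-fold. Lists with a median over 0.1 above that of all transcripts numbered 8, and 5 to 10 with 1 library left out, and those over 0.1 below it 2, and 2 to 6. No median of a list with a size of 0.1 or more changed sign. For the ratio, 2 genes were called with a pseudocount of 0.01, 1 with CPM of the expected counts in place of FPKM, and 0 to 1 with 1 library left out, and the median ran from -0.20 to -0.11. Of 592 values of 44 named transcripts, 6 turned sign, all near 0: *RPL28* to -0.0655 with total library size, and, with 1 library left out, *RPL28* (-0.0473 to 0.1123), *URA3* (-0.0997 to 0.0343) and *SUP45* (-0.0777 to 0.0203). The cause was not tested.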

Other observations

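Entries that the annotation lists as pre-mRNA without a spliced partner, mostly Ty elements translated by programmed frameshifting, had 2 of 35 members with both *sup45-ts* libraries above and 6 with both below the *SUP45* libraries, at a median log2 fold change of -0.02 and with none called (edgeR; 0 higher and 3 lower at an unadjusted p of 0.05 or less). Their median was -0.77 at 37°C. Non-coding and other entries had 2 of 21 above and 3 below, at a median of -0.03.

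Zinc and copper genes had 6 of 12 separate on the lower side and 2 on the higher, led by the zinc transporter gene *ZRT1* with 115 and 106 CPM in *sup45-ts* against 132 and 138 CPM in *SUP45* (log2 fold change -0.29 ± 0.07, edgeR adjusted p = 0.23). Cell wall genes had 10 of 29 on the higher side and 2 on the lower (median 0.11, but 0.29 without *SUP45* replicate 1, 0.02 without *SUP45* replicate 2 and 0.01 with total library size), and *SED1*, a cell wall mannoprotein gene, had 278 and 248 CPM in *sup45-ts* against 229 and 145 CPM in *SUP45* (log2 fold change 0.49 ± 0.18, adjusted p = 0.33). Sulfur genes had 7 of 28 on the higher side and 2 on the lower (median 0.02), and RNA polymerase I and III subunits 4 and 2 of 20 (median -0.02).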
